A study of Arabidopsis thaliana with 26 samples.

Results

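The subject here is a set of transcripts in Arabidopsis thaliana leaves that were higher late in darkening in the accession Col-0 but not in pif5, a line in which the transcription factor gene PIF5 is knocked out. Members were chosen from the deposited log2 expression values by their group means. A row of the table was kept if its Col-0 mean at day 1 lay within 0.5 of the Col-0 mean in light, its Col-0 mean at day 6 lay at least 1.5 above light, and its pif5 mean at day 6 lay within 0.5 of the pif5 mean in light. The rule found 152 of 26676 rows, and a limit of 200 rows was not reached. On the log2 scale used throughout, a difference of 1 is 2-fold. The means of Col-0 at days 0, 1 and 6 and of pif5 at days 0 and 6 chose the members, so those values are described and carry no test.

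Phytochrome-interacting factors (PIFs) are basic helix-loop-helix transcription factors that accumulate in darkness and are degraded when phytochrome is activated by light. PIF4 and PIF5 are known to promote leaf senescence in the dark, the programme in which a leaf loses chlorophyll, dismantles its chloroplasts and exports its nutrients. A single leaf darkened on an otherwise lit plant senesces fast, whereas a wholly darkened plant does so more slowly.

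Plants were grown in short days, and on either side of each plant a fully expanded leaf was enclosed in a foil-coated sleeve while the other leaves stayed in the normal light and dark cycle. Leaf blades were collected at noon. Col-0 leaves were taken in light (day 0) and at days 1, 3 and 6 of darkening, as were those of pif5, named pif5-621 in the design text, with 3 arrays per group. A further group of 2 arrays held pif5 after 12 days, a time not sampled in Col-0. Each genotype has 1 group in light, so a change from day 0 does not separate darkening from leaf age. Whether replicate arrays stand for different plants is not stated in the labels, so each p-value rests on a spread between arrays that may be technical. Bulk leaf RNA was measured, so fewer cells of a type and less RNA per cell cannot be told apart.

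Array medians over all rows lay between 4.197 and 4.325. The platform's gene names were set against the values before use and were not borne out. Light-harvesting proteins are abundant in lit leaves. The 6 rows listed for them had a median at the 48.5th percentile of levels in lit Col-0 leaves, lower than the check required. Their median Col-0 change on day 6 was -0.11, which met the condition that it be below 0. Because the levels did not pass, each row is given by its table identifier, with no gene name. No row with a single listed gene is named PIF5, so the level of PIF5 was not analysed and the knockout was not checked here. Of the 152 members the annotation lists 1 gene for 89 (58.6%, against 60.6% of all rows), several for 4 and none for 59.

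In lit leaves the members were mostly dim. Their Col-0 levels at day 0 had a median of 3.59 and ran from 2.97 to 7.64, and 122 of 152 lay under the median of all values of the table, 4.28, as did 49.6% of all rows. At Col-0 day 6 the median level was 5.91 and 0 of the 152 lay under that value (50.8% of all rows), a position that the rule itself favours. In pif5 on day 12, which the rule did not use, 120 lay under it and 32 did not (51.5% of all rows lay under it).

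The median member level per array was 3.53 to 3.69 in Col-0 on day 0, 3.82 to 3.96 on day 1, 4.29 to 4.39 on day 3 and 5.91 to 5.99 on day 6. In pif5 it was 3.57 to 3.75 on day 0, 3.76 to 3.85 on day 1, 3.80 to 3.94 on day 3 and 3.75 to 3.97 on day 6. The pif5 day 12 arrays stood at 3.88 for replicate 1 and 3.63 for replicate 2. The highest of the 14 pif5 array medians lay below the lowest of Col-0 day 3.

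**Figure D1:**
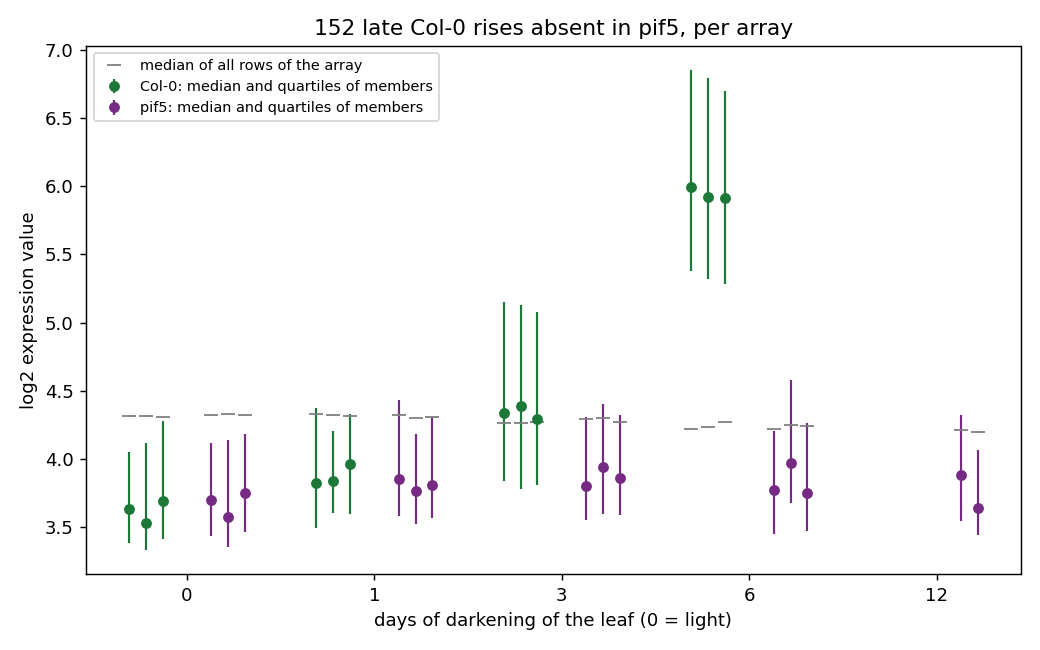
Log2 expression of the 152 members on each of the 26 arrays against days of darkening (days evenly spaced, not to scale), with Col-0 in green and pif5 in purple. Points are the median over members, bars the quartiles over members and grey dashes the median of all rows of the array. The Col-0 medians stand at 5.91 to 5.99 on day 6, and all pif5 medians lie between 3.57 and 3.97.

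Seen array by array, 0 members stood at least 1 above their day 0 mean in Col-0 on day 1 (4.70% to 4.94% of all rows). On day 3, 47 to 53 did so (6.39% to 7.29% of all rows), and on day 6, 150 to 152 (7.59% to 8.12%). In pif5 the numbers were 1 or 2 on day 1 (3.71% to 4.52% of all rows) and 3 or 4 on day 3 (3.89% to 4.51%). On day 6 they were 0 to 2 (3.65% to 3.74%). At day 12 there were 6 in replicate 1 (4.19% of all rows) and 0 in replicate 2 (3.39%). The pif5 day 6 arrays differed among themselves. Replicate 2 had 35 members at least 0.5 above the day 0 mean, against 7 and 10 in the other arrays. Of all rows, 11.5% to 11.7% stood that high in these arrays.

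**Figure D2:**
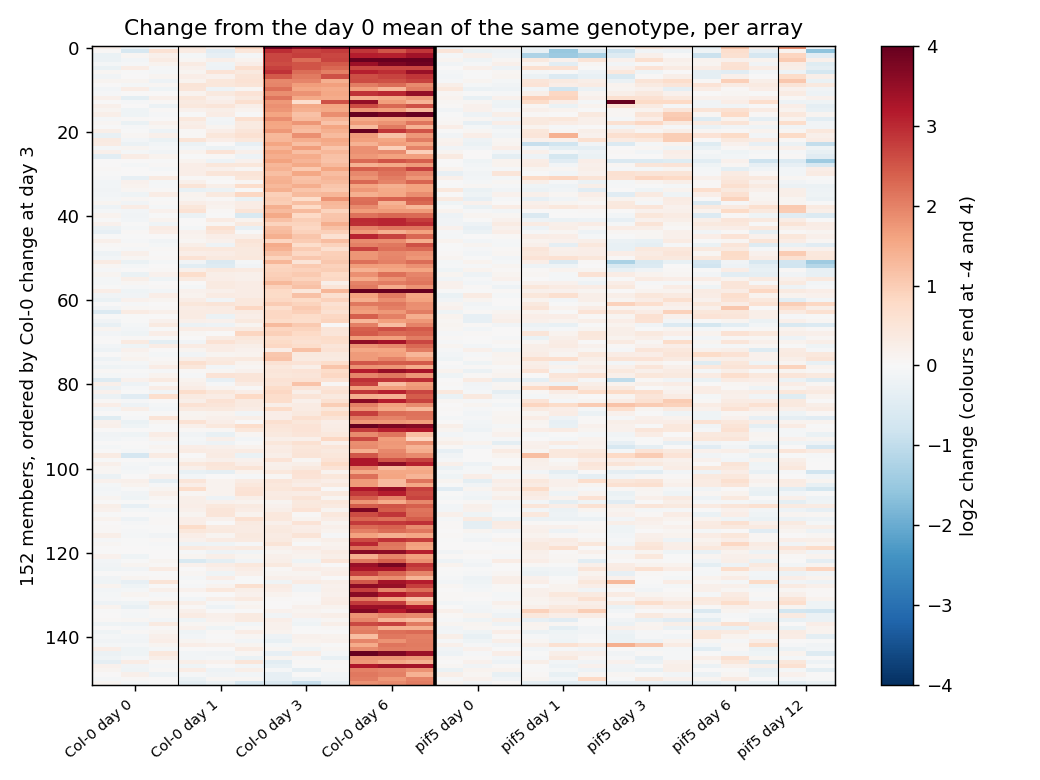
Log2 change of each member (one line per member, ordered by its Col-0 change at day 3) from the day 0 mean of the same genotype, for each array in columns grouped by genotype and day. Red is higher and blue lower, with colours ending at -4 and 4. All 3 Col-0 day 6 columns are red over nearly the whole height, Col-0 day 3 is red in its upper part, where 49 members stand at least 1 above light, and the pif5 columns stay pale.

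The Col-0 difference at day 6 from light, on which the rule set a floor, had a median of 1.99 over the members and ran up to 5.15. As folds of the deposited values these are 3.99 and 35.6. The table gives no background level, so whether the dim lit values lay above background was not analysed here, and the fold of a dim row may not measure the change in its RNA. There were 75 members at 2 or above, 25 at 3 or above and 4 at 4 or above. The last 4 were rows 13345677, 13438768, 13473409 and 13359123.

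Row 13345677 was the largest. Its values in Col-0 were 3.40, 3.03 and 3.17 on day 0, 3.59, 3.36 and 4.04 on day 1, 7.12, 6.84 and 7.03 on day 3 and 8.33, 8.23 and 8.51 on day 6. In pif5 they were 3.39, 3.69 and 3.73 on day 0, 3.43, 3.55 and 3.64 on day 1, 3.62, 4.05 and 3.93 on day 3 and 3.38, 4.71 and 3.87 on day 6. The first pif5 array at day 12 read 5.42 and the second 3.49. Most of the Col-0 difference was thus present at day 3, where the genotypes did not overlap, and in pif5 a single day 12 array stood above the rest.

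Row 13438768 was next, with a Col-0 difference of 5.02 on day 6. Its Col-0 values were 6.09, 5.65 and 6.11 on day 3 and 8.36, 8.18 and 8.77 on day 6, from 3.20, 3.32 and 3.75 in light. In pif5 it read 3.48, 3.95 and 3.52 on day 3, and 4.33 and 3.53 on day 12. The Col-0 values of day 6 lay above those of day 3, and again the first day 12 array of pif5 was the higher one.

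Rows 13473409, 13358593 and 13375294 were late in the narrower sense. In row 13473409 the Col-0 values were 4.04, 3.69 and 4.57 on day 3 and 8.01, 7.97 and 7.85 on day 6. In row 13358593 they were 3.71, 3.77 and 3.52 on day 3 and 7.45, 6.98 and 6.90 on day 6. Row 13375294 was flat to day 3 (3.09, 3.69 and 3.34, against 3.16, 3.24 and 3.82 in light) and read 7.47, 7.14 and 6.84 on day 6. In pif5 on day 12 these rows read 3.80 and 3.69, 3.79 and 3.44, and 3.59 and 2.95, so none of the 6 values came within 3 of the lowest Col-0 day 6 array of its row.

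The Col-0 day 3 arrays did not enter the rule and divide the members by timing. The Col-0 change from light at day 3 had a median of 0.60, against 0.05 over all rows, and ran from -0.62 to 3.80. It was at least 1 in 49 members (6.58% of all rows), between 0.5 and 1 in 37 and under 0.5 in 66, of which 10 were below 0. In 104 members the interval from day 3 to day 6 held more of the difference than the first 3 days. The lit Col-0 arrays enter both this change and the rule, so the change is a description.

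Early and late members had similar median differences from light at day 6, a measure on which the rule set the same floor for all. The median Col-0 difference at day 6 was 2.09 in the 49 with a day 3 change of at least 1, 1.85 in the 37 between and 2.11 in the 66 under 0.5. The largest day 3 changes were those of rows 13345677 (3.80), 13337868 (2.82), 13432039 (2.71) and 13438768 (2.53). Row 13337868 stood at its final height by then, with Col-0 values of 8.32, 8.06 and 8.15 on day 3 and 8.23, 7.86 and 8.21 on day 6.

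The lowest day 3 changes were those of rows 13525073 (-0.62), 13470328 (-0.22), 13541627 (-0.15) and 13436088 (-0.12). Row 13525073 was below its lit level before it was high: its Col-0 values were 4.39, 4.2 and 4.28 on day 0, 3.89, 4.05 and 3.65 on day 1, 3.72, 3.36 and 3.92 on day 3 and 6.11, 6.19 and 6.33 on day 6. The pif5 values were 4.40, 4.14 and 4.33 in light and lay between 3.87 and 4.02 on all later arrays. In this row both genotypes were lower than in light at days 1 and 3, and Col-0 alone was higher at day 6.

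The genotypes were compared at day 3, a pair of groups that the rule did not use, in a limma fit over all rows and groups (p-values adjusted by Benjamini-Hochberg over all rows, threshold 0.05). There, 74 of 152 members were lower in pif5 than in Col-0, where 9.8% of all rows were called lower, and 39 of them differed at least 2-fold (1.81% of all rows). A further 2 were higher in pif5 (8.53% of all rows). The median difference was -0.42 over the members and -0.02 over all rows. At an unadjusted p under 0.05, 81 members were lower (15.2% of all rows). In 82 members the 3 Col-0 arrays lay above all 3 pif5 arrays (16.4% of all rows), and in 4 the order was the reverse (13.7%).

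The counts are given by the Col-0 change on day 3 as a description, since the same Col-0 day 3 arrays set both that change and the call. Of the 49 members with a Col-0 change of at least 1 on day 3, 48 were lower in pif5, with a median difference of -1.17 (55.9% and -0.51 among all rows with such a change). Of the 37 between 0.5 and 1, 21 were lower, with a median of -0.49 (25.9% and -0.22). Of the 66 under 0.5, 5 were lower and 2 higher, with a median of -0.05 (4.3% lower, 9.65% higher and a median of 0.01).

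**Figure D3:**
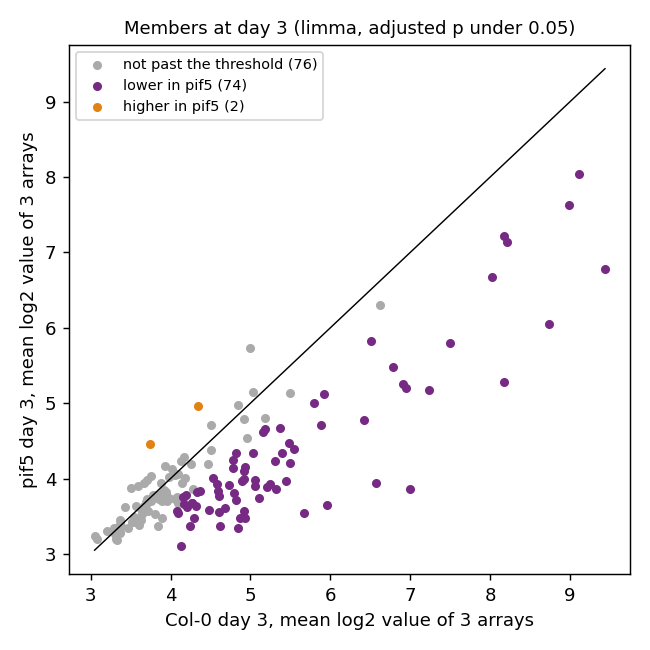
Mean log2 value of each member at day 3 in pif5 (vertical axis, 3 arrays) against Col-0 (horizontal axis, 3 arrays), with the line of equality. Purple points are the 74 members lower in pif5, orange the 2 higher and grey those not past the limma threshold. The purple points lie to the right of the line, 39 of them by at least 1. Some of the rows with high Col-0 means are high in pif5 as well, though lower than in Col-0.

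Row 13435766 had the lowest p of the members at day 3. It is bright, with Col-0 values of 6.95, 7.10 and 7.19 in light, 9.52, 9.17 and 9.62 on day 3 and 9.64, 9.78 and 9.94 on day 6. The pif5 values were 6.80, 6.89 and 7.0 in light and 6.30, 6.93 and 7.13 on day 3. The groups at day 3 were more than 2 apart, and pif5 was lower by a difference of -2.65 (SE 0.18, limma adjusted p = 3.25e-11). Rows 13501341 and 13438768 followed, with differences of -2.62 (SE 0.19, limma adjusted p = 1.06e-10) and -2.31 (SE 0.18, limma adjusted p = 5.96e-10). Row 13501341 read 6.66, 6.56 and 6.49 in Col-0 and 3.83, 3.93 and 4.08 in pif5 on day 3, again without overlap.

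Row 13345677 had the widest gap, -3.13 (SE 0.30, limma adjusted p = 1.53e-08), and row 13337868 differed by -2.90 (SE 0.36, limma adjusted p = 8.73e-07). The 2 brightest members in lit Col-0 leaves, rows 13431668 and 13361167, were lower in pif5 on day 3 by differences of -1.07 (SE 0.25, limma adjusted p = 0.00248) and -1.35 (SE 0.18, limma adjusted p = 1.86e-06). Of the 2 dimmest, row 13397923 was lower by -1.02 (SE 0.17, limma adjusted p = 4.43e-05), and row 13339357 did not pass (difference 0.12, 95% interval -0.25 to 0.48). Calls were therefore made at both ends of the range of brightness.

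Of the 6 members with the largest Col-0 difference on day 6, 2 had day 3 calls that rested on single arrays and 2 were not called. Row 13473409 was lower in pif5 by -0.56 (SE 0.16, limma adjusted p = 0.0123), a call lost without Col-0 day 3 replicate 3 (adjusted p = 0.152), without pif5 day 3 replicate 1 (0.0571) and in a fit of the compared groups alone (0.0508). Row 13359123 was lower by -0.79 (SE 0.21, limma adjusted p = 0.00724), a call lost without pif5 day 3 replicate 1 (0.0882) or Col-0 day 3 replicate 3 (0.0592). Rows 13358593 and 13375294 differed by -0.04 (95% interval -0.43 to 0.35) and 0.02 (-0.35 to 0.40) and did not pass. Rows 13356601, 13336866 and 13399827 had the highest p, all with differences of 0.00 to 2 decimals; their intervals ran from -0.30 to 0.30, from -0.42 to 0.41 and from -0.31 to 0.30.

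The 2 members higher in pif5 on day 3 were rows 13528266 and 13359944. Row 13528266 read 4.95, 4.59 and 3.85 in pif5 and 3.67, 3.82 and 3.74 in Col-0, with the third pif5 array just above the highest Col-0 one (difference 0.72, SE 0.21, limma adjusted p = 0.013). The call was lost without pif5 day 3 replicate 1 (0.144) or replicate 2 (0.0579). Row 13359944 read 4.97, 5.18 and 4.73 in pif5 and 4.17, 4.47 and 4.39 in Col-0 (difference 0.62, SE 0.22, limma adjusted p = 0.0468). It lay so near the threshold that leaving out most single arrays ended the call, with adjusted p up to 0.184. Both rows were back near their lit level in pif5 on day 12, at 3.48 and 3.38 and at 4.14 and 4.13.

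Whether the rise came later in pif5 was read from the 2 arrays at day 12. The pif5 change from light at day 12 had a median of 0.06 over the members (-0.03 over all rows), with quartiles of -0.13 and 0.23 and a range of -1.09 to 0.91. Set against the Col-0 change of the same row at day 6, it had a median of 2.41% and ran from -56.0% to 45.1%. There were 10 members at 0.5 or above (11.0% of all rows) and 0 at 1 or above (3.65%). Between -0.5 and 0.5 lay 134 (72.3% of all rows), and 8 were at -0.5 or below (16.7%). The lit pif5 arrays entered the rule, so these changes are descriptions.

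The same was asked without the lit arrays. In limma, 0 members were higher in pif5 on day 12 than at day 3, where 4.58% of all rows were called higher, and 10 were lower (5.72%), 2 of them at least 2-fold (1.03%). At an unadjusted p under 0.05, 4 members were higher and 20 lower (9.03% and 13.3% of all rows). The median difference was -0.10 over the members and -0.05 over all rows. Both day 12 arrays lay above all 3 day 3 arrays in 10 members (14.5% of all rows) and below them in 31 (22.3%). The count of members called higher was 0 to 2 under the other settings tried for this comparison and 3 without pif5 day 12 replicate 2, which leaves 1 array in that group, assumed to vary like the others. It was 1 without pif5 day 3 replicate 3 and 1 without pif5 day 6 replicate 1.

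**Figure D4:**
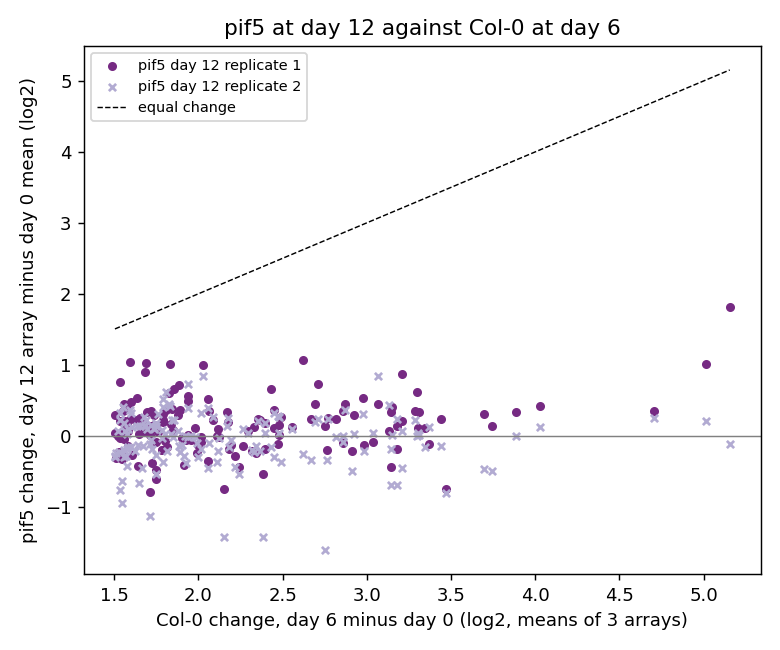
Change of each member in pif5 on day 12 from the pif5 day 0 mean (vertical axis, log2, circles for replicate 1 and crosses for replicate 2) against its Col-0 change at day 6 (horizontal axis, log2, means of 3 arrays). The dashed line marks equal change. Both sets of symbols lie around 0 along the whole axis, and 6 circles and 0 crosses reach 1.

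In 2 members both day 12 arrays stood at least 0.5 above the lit mean, where 8.71% of all rows did so. Row 13446149 had the highest pif5 change at day 12, 0.91. Its pif5 values were 3.87, 3.63 and 3.77 in light, 4.14, 3.76 and 3.85 on day 1, 4.69, 4.42 and 4.03 on day 3, 4.22, 4.06 and 4.36 on day 6 and 4.75 and 4.59 on day 12. Both day 12 arrays lay above all lit arrays and below the Col-0 day 6 arrays, which read 5.79, 5.77 and 5.54. Day 12 was not called against day 3 (difference 0.29, SE 0.16, limma adjusted p = 0.286) nor against Col-0 day 3 (0.16, SE 0.16, adjusted p = 0.506). Row 13394195 was the other, with 4.08 and 4.26 on day 12 against 3.55, 3.54 and 3.50 in light. Its Col-0 values were 3.56, 3.68 and 3.54 on day 3 and 5.55, 5.45 and 4.96 on day 6.

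Single arrays were higher in 6 further members, all in replicate 1 of day 12. Besides rows 13345677 and 13438768 these were rows 13370850 (4.60 in replicate 1 and 3.28 in replicate 2), 13494876 (5.33 and 4.74), 13408097 (4.39 and 3.58) and 13512696 (4.44 and 3.77), of which rows 13370850 and 13408097 fall outside the naming rule and were chosen after their values were seen. Replicate 1 lay at least 1 above the lit mean in each of the 6 and replicate 2 in none. As a count, 3.95% of members had a day 12 array that high, a share near the 4.73% of all rows. Row 13345677 passed as higher at day 12 than at day 3 when replicate 2 was left out (difference 1.56, limma adjusted p = 0.00282) and not with both arrays (0.59, SE 0.34, adjusted p = 0.318).

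Row 13435766 came nearest to a call at day 12. It read 7.62 and 7.12 there, against 6.30, 6.93 and 7.13 on day 3, with an overlap of one array, and the difference was 0.59 (SE 0.20, limma adjusted p = 0.0576). It passed with arrays centred on their medians (0.67, adjusted p = 0.0244), with dim rows left out (0.0418), with trend and robust moderation (0.0499), and without pif5 day 3 replicate 3 (0.0187), pif5 day 6 replicate 1 (0.0481) or pif5 day 12 replicate 2 (0.0463). Both values remained more than 2 below the lowest Col-0 day 6 array, 9.64.

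Against day 1, a comparison added after the data were examined, 6 members were higher at day 12 (8.73% of all rows) and 11 lower (13.2%). Row 13432039 had the largest such difference, 1.54 (SE 0.30, limma adjusted p = 0.000374). Its pif5 values were 6.07, 6.36 and 6.00 in light, 4.90, 4.68 and 4.87 on day 1, 5.64, 6.35 and 6.17 on day 3, 5.30, 6.75 and 5.46 on day 6 and 7.01 and 5.69 on day 12. In this row pif5 was lower on day 1 than in light and about at the lit level on days 3 and 6, whereas Col-0 read 5.94, 5.71 and 5.96 on day 1 and 9.19, 9.13 and 9.39 on day 6. The other 5 were rows 13435766, 13446149, 13408097, 13340684 and 13426007, with differences from 0.84 down to 0.43. Row 13426007 also falls outside the naming rule.

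**Figure D5:**
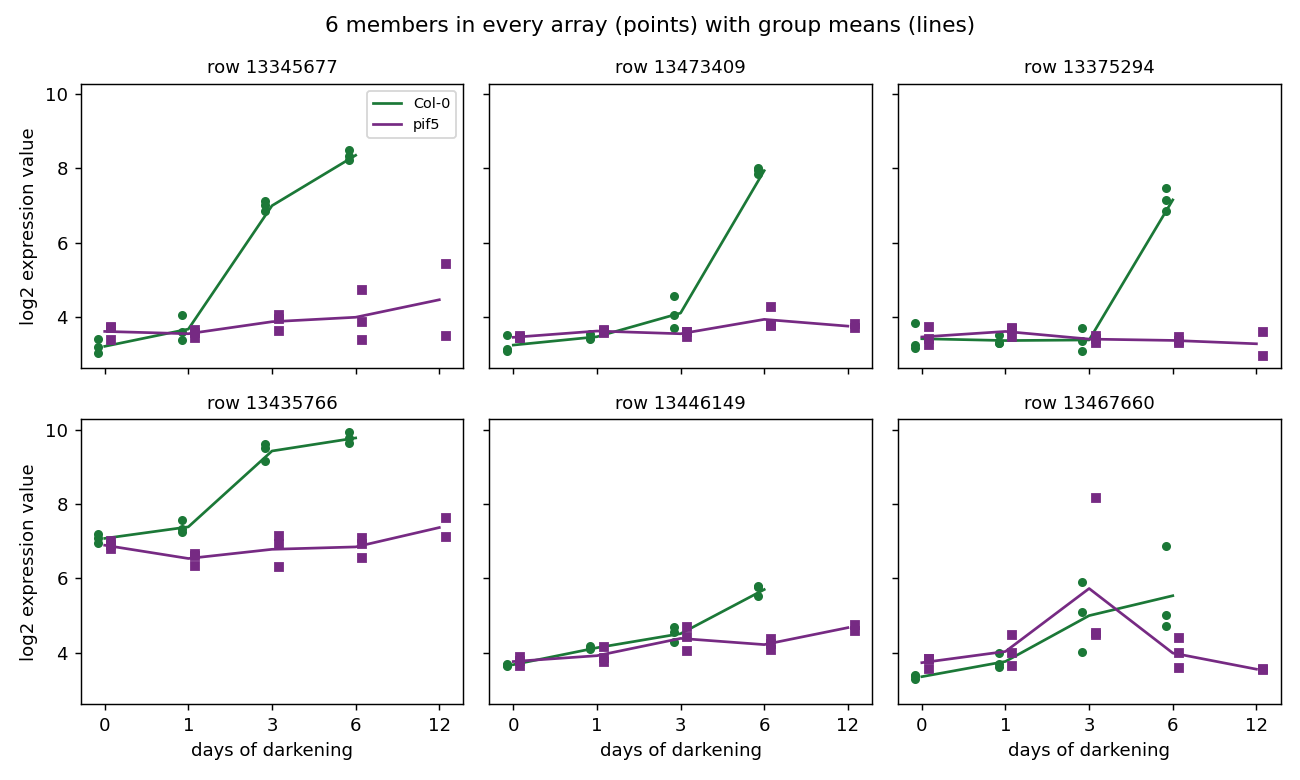
Log2 value of 6 members on every array (points) with group means joined by lines, against days of darkening (evenly spaced, not to scale), Col-0 in green and pif5 in purple. Rows 13345677 and 13435766 separate by genotype at day 3, rows 13473409 and 13375294 mainly at day 6, row 13446149 is slightly above light in pif5 from day 3, and row 13467660 has a single pif5 day 3 array at 8.17.

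The members lowest in pif5 late in darkening are described singly. As a count, 10 of 152 were called lower on day 12 than on day 3, a share near the 5.72% of all rows. Row 13428867 had pif5 values of 4.43, 4.09 and 4.16 in light, 5.14, 4.80 and 5.22 on day 1, 4.12, 4.25 and 4.21 on day 3, 3.64, 4.32 and 4.21 on day 6 and 3.48 and 3.41 on day 12. It was high at day 1, at the lit level at day 3 and under it at day 12. The difference from day 1 to day 3 was -0.86 (SE 0.15, limma adjusted p = 0.000374) and that from day 3 to day 12 was -0.75 (SE 0.17, limma adjusted p = 0.00344), the latter at adjusted p = 0.0567 without pif5 day 12 replicate 2. In Col-0 the same row stayed between 4.11 and 4.35 up to day 3 and read 7.84, 7.33 and 7.69 on day 6.

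Rows 13448638, 13527678 and 13337762 were the lowest in pif5 on day 12, with changes from light of -1.09, -0.98 and -0.96. Row 13337762 read 7.01, 7.0 and 7.16 in lit pif5, 6.44, 6.50 and 7.06 on day 3 and 6.27 and 5.93 on day 12, where its Col-0 values were 8.75, 8.70 and 8.89 on day 6. Its difference from day 3 to day 12 was -0.57 (SE 0.17, limma adjusted p = 0.0254), not called without pif5 day 3 replicate 3 (0.175), without pif5 day 12 replicate 2 (0.349), with arrays centred on their medians (0.0611) or in a fit of the compared groups alone (0.116). Rows 13448638 and 13527678 did not pass (differences -0.37 and -0.46, limma adjusted p = 0.463 and 0.264), and row 13527678 passed without pif5 day 12 replicate 1 (0.0434). By group means these 3 members stood about 1 below light in pif5 after 12 days, and 1.71 to 2.38 above light in Col-0 after 6. The day 12 arrays differed, with replicate 2 the lower. Row 13448638 read 5.17 and 4.50 there, against 5.86, 6.09 and 5.85 in light. Row 13527678 read 5.23 and 4.35, against 5.80, 5.62 and 5.91.

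Row 13467660 rested on one array. Its pif5 day 3 values were 8.17, 4.48 and 4.53, and on the other days the pif5 values lay between 3.53 and 4.47. Its Col-0 day 6 values, 6.87, 5.03 and 4.70, also spread widely, and it was the 1 member of 152 in which the pif5 arrays of days 1, 3 and 12 did not all lie below every Col-0 day 6 array (151 members, against 12.6% of all rows; the rule used Col-0 day 6). The difference from day 3 to day 12 was -2.18 (SE 0.67, limma adjusted p = 0.036). It was -0.96 without pif5 day 3 replicate 1 (adjusted p = 0.225), and was also not called without pif5 day 12 replicate 1 (0.151) or replicate 2 (0.174), in a fit of the compared groups alone (0.147) or with trend and robust moderation (0.118).

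Row 13487642 was higher in pif5 at days 1 and 3 and lower later. It read 3.69, 3.80 and 3.58 in light, 4.53, 4.42 and 4.71 on day 1, 4.83, 4.70 and 4.62 on day 3, 4.0, 4.12 and 4.31 on day 6 and 4.07 and 3.91 on day 12. The day 12 arrays lay below all day 3 arrays (difference -0.72, SE 0.17, limma adjusted p = 0.00551), a call lost without pif5 day 12 replicate 2 (0.0996). In Col-0 it read 4.24, 4.31 and 4.97 on day 3, where the genotypes overlapped (difference 0.21, limma adjusted p = 0.426), and without Col-0 day 3 replicate 3 the pif5 value passed as higher (0.44, adjusted p = 0.0333).

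The members called between days 1 and 3 in pif5 are described singly, since as counts their shares lay near those of all rows. In limma 3 members were higher at day 3 (3.16% of all rows) and 3 lower (4.05%), and at an unadjusted p under 0.05 there were 11 and 7 (8.16% and 10.8% of all rows). Row 13432039 was higher by 1.24 (SE 0.27, limma adjusted p = 0.0041), row 13446149 by 0.47 (SE 0.14, limma adjusted p = 0.0396) and row 13360125 by 0.53 (SE 0.16, limma adjusted p = 0.038). The count fell to 1 without pif5 day 1 replicate 2 and to 1 without pif5 day 3 replicate 1. The call of row 13446149 was lost without either of these (adjusted p = 0.17 and 0.254), and also without pif5 day 1 replicate 3 (0.118) or pif5 day 3 replicate 2 (0.111), in a fit of the compared groups alone (0.16) and with trend and robust moderation (0.051). The 3 lower were rows 13428867, 13508811 (-0.44, limma adjusted p = 0.0397) and 13358927 (-0.55, adjusted p = 0.0254). Rows 13360125, 13508811 and 13358927 fall outside the naming rule and are given because the counts are small.

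Leaves of pif5 darkened for 12 days were also set against Col-0 leaves darkened for 3, neither group used by the rule. Here 74 members were lower in pif5 (15.8% of all rows), 44 of them at least 2-fold (4.04%), and 1 was higher (11.9%). The mean of pif5 day 12 lay below that of Col-0 day 3 in 130 members, and 59.6% of all rows did so. Row 13501341 read 4.25 and 3.47 in pif5 on day 12 against 6.66, 6.56 and 6.49 in Col-0 on day 3 (difference -2.70, SE 0.21, limma adjusted p = 1.67e-10). The member called higher was row 13394195 (0.58, SE 0.15, limma adjusted p = 0.00508), not called without pif5 day 12 replicate 2 (0.0872). This comparison shares its Col-0 day 3 arrays with that of the genotypes at day 3 and its pif5 arrays with that of day 12 against day 3.

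The members are part of a wider set. Of all rows, 1081 had a Col-0 difference of at least 1.5 on day 6, and 239 of these lay within 0.5 of light at day 1. Of the 239, 152 are the members, 52 had a pif5 change at day 6 between 0.5 and 1, 25 one of at least 1 and 10 one of -0.5 or below. The 25 rows that were also higher in pif5 on day 6 had a median pif5 change of 1.06 on day 3 and 1.45 on day 12, against 0.16 and 0.06 in the members. Of these 25, 13 were higher in pif5 on day 3 than at day 1 (3.16% of all rows), against 3 of the 152 members. At day 12, 6 of the 25 were higher than at day 3 (4.58% of all rows), against 0 of the members. Of the 52 between, 8 and 1 were higher in the same comparisons. The classes were formed by the pif5 change at day 6, a choice that may itself favour pif5 rises at other days in the 25. The lit pif5 arrays used to form these classes also enter the changes from light, and the difference between classes was not tested.

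At day 3, 11 of the 25 and 29 of the 52 rows were lower in pif5 than in Col-0, with median differences of -0.41 and -0.54. The members had 74 of 152 and -0.42. Of all rows 9.8% were lower, with a median difference of -0.02. A lower level in pif5 on day 3 was thus also seen in late Col-0 rows with a pif5 change, and the difference in frequency was not tested.

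Row 13406291 was the last inside the floor on the Col-0 difference at day 6, at 1.505, and row 13335846 lay outside at 1.498. For the Col-0 difference at day 1, row 13398681 was inside at 0.49 and row 13373541 outside at 0.51. For the pif5 difference at day 6, row 13447807 was inside at 0.494 and row 13519653 outside at 0.502. The last of these had a Col-0 difference of 4.03 on day 6 and a pif5 change of 0.26 on day 12, and it would have ranked among the 5 largest. Row 13447807 was lower in pif5 on day 3 by -0.49 (SE 0.12, limma adjusted p = 0.00464), a call lost without pif5 day 3 replicate 1 (0.0584).

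The rule was repeated on the arrays of 2 replicate numbers and read in the third. Without replicate 1 it found 142 rows, 115 of them members. Their median Col-0 difference at day 6 was 2.02 in the arrays used and 2.05 in the array left out, and the pif5 difference was 0.15 and 0.04. Without replicate 2 it found 167 rows (122 members), with 2.00 and 2.12 in Col-0 but 0.10 and 0.39 in pif5, and 13 of the 167 stood at least 1 above light in the pif5 day 6 array left out. Without replicate 3 it found 134 rows (116 members), with 2.07 and 1.97 in Col-0 and 0.15 and 0.05 in pif5. The number of rows that met all conditions in the left-out replicate was 78 of 142, 59 of 167 and 67 of 134. In the left-out replicate the pif5 difference was within 0.5 in 116 of 142, 97 of 167 and 110 of 134. The Col-0 difference was at least 1.5 in 114, 132 and 103 of these rows. The size of the Col-0 difference thus carried over to arrays that did not choose the rows. The narrow band around no change in pif5 was met less often in replicate 2 than in replicates 1 and 3. Most rows of the table lie in such a band. By group means, 73.8%, 73.3% and 72.3% of all rows did so at pif5 days 1, 3 and 12. The share of all rows in the left-out day 6 arrays was not analysed, so these pif5 counts are a description.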

How the data were processed

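Per the labels, biotin-labelled cRNA of 26 leaf samples was hybridised to one-colour arrays. The deposited table holds log2 values for 26676 rows, already summarised by the authors. The submitters' processing notes name oligo, without a version. The sources used here do not give background correction, normalization or batches. Values lay between 2.24 and 13.50, and the number of arrays limits the precision.

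Groups and replicate numbers came from the labels. Members were chosen by group means in Python 3.11.15 with pandas 2.3.3. The limma 3.58.1 functions lmFit, contrasts.fit and eBayes (R 4.3.3) were run on all rows, with 9 groups in 1 fit and 17 residual degrees of freedom, and p-values were adjusted by Benjamini-Hochberg over all rows. The members and lists were chosen with earlier results of these data known.

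Rows described singly were the 8 members with the highest Col-0 change at day 6; the 4 highest and 4 lowest Col-0 changes at day 3; the 6 highest and 4 lowest pif5 changes at day 12; the 4 highest and 2 lowest pif5 changes at day 3; the 3 lowest and 3 highest adjusted p-values for the genotypes at day 3; the 2 brightest and 2 dimmest in lit Col-0; and the rows next to each threshold. The platform annotation lists 1 gene for 16179 rows, several for 588 and none for 9909. Of the rows with 1 gene, 16067 were matched to a symbol in the TAIR10.1 gene table. Names entered only a check of lists against levels, which was not passed. Its conditions covered rows listed for light-harvesting and cytosolic ribosomal proteins. In lit Col-0 these lay too low, at median percentiles of 48.5 (6 rows) and 10.9 (1 row). The condition that the light-harvesting change at day 6 be below 0 was met (-0.11). No condition was set for the other lists. Their median percentiles were 22.1 for autophagy (10 rows), 67.7 for amino acid catabolism (7) and 78.8 for senescence regulators (4). They were 55.0 for senescence associated genes (2), 33.3 for chlorophyll catabolism (1), 32.8 for the PIF family (1) and 40.6 for small secreted LCR peptides (26). None of the listed rows is a member.

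Replicate arrays of a group correlated at 0.981 to 0.991, and none were identical. Alternatives were quantile normalization, median centring, leaving out rows whose highest group mean lay under 4.28 (15813 rows and all 152 members remained), a fit of the compared groups alone, the replicate number as a block, trend and robust moderation, a 2-fold minimum, other thresholds of the rule and leaving out each array. All members pass the filter on dim rows through Col-0 day 6, where the rule favours a high level. That filter thus removes no dim member and changes only which other rows enter the fit and the adjustment. The fit was tested on simulated data.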

Additional observations from a re-analysis of the deposited data

Results flagged for a closer look

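The response to 3 days of darkening, day 3 minus day 0, differed between the genotypes in 57 of 152 members by the limma interaction term. In 56 the response was lower in pif5 (5.48% of all rows were called so) and in 1, row 13528266, it was higher (4.68%). The lit arrays of both genotypes enter this term and also entered the rule that chose the members, so the count is given as a description, with no p-value for single rows.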

How the results depend on the processing

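The number of members lower in pif5 than in Col-0 at day 3 was 74 with quantile normalization, 75 with median centring and 71 in a fit of the compared groups alone, and 63 to 75 with single arrays left out; 39 differed at least 2-fold. The number higher in pif5 at day 12 than at day 3, 0 as reported, was 1 with quantile normalization, 2 with median centring, 1 with dim rows left out, 1 with trend and robust moderation and 0 to 3 with single arrays left out. Set against day 1 instead, a choice made after seeing the data, it was 6. No member is removed when dim rows are left out. The number lower in pif5 at day 12 than in Col-0 at day 3 was 44 at 2-fold or more, instead of 74, and 65 to 75 with single arrays left out. The number higher in pif5 at day 3 than at day 1 was 1 at 2-fold or more, instead of 3, and 1 to 4 with single arrays left out.

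The rule found 75 rows with a Col-0 difference of at least 2 at day 6, 86 with the pif5 difference at day 6 under 0.25 and 81 with the Col-0 difference at day 1 under 0.25. It found 144 rows after quantile normalization (138 of them members), 159 after median centring (134), 152 by group medians (129) and 142 to 159 with single arrays left out.

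Same-numbered arrays did not deviate together from their group means. Correlations over all rows were 0.085, 0.035 and 0.02 between the genotypes at day 3, and -0.11 and -0.015 between pif5 days 3 and 12, so the numbers were not taken to pair samples. With the replicate block the counts of the 4 comparisons, in the order above, were 74, 1, 76 and 3. The 1 member called at day 12 was row 13435766 (0.66, limma adjusted p = 0.0183).

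The 37 members described by rule gave 4736 values over the 4 comparisons and the alternatives. Of these, 4633 kept their side of the threshold, 75 lost a call, 28 gained one and none changed the direction of a call. Differences that were not called could change sign, as in row 13336866 at day 3 (-0.17 to 0.11). Leaving out an array outside the compared groups leaves the difference itself as it was. The changes concerned 20 members, and the cause was not tested. The day 12 group holds 2 arrays, and 120 of the 152 members lay under the median of all values there. The smallest difference that could be called there was not tested.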
